A study of Homo sapiens with 12 samples.

Results

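The cyclins that carry a cell from G1 to mitosis were followed as 10 genes, CCND1, CCND2, CCND3, CCNE1, CCNE2, CCNA2, CCNB1, CCNB2, CCNF and CCNG2, of the 19775 genes named on the arrays. They were chosen by name from textbook knowledge of the cycle, but with earlier results of these data known. Every probe set that the platform annotation assigns to those symbols was taken, which gave 26 probe sets, none of them assigned to another gene as well. The cells were 22Rv1, an established human prostate carcinoma line, kept in RPMI-1640 medium with fetal bovine serum and antibiotics. They received vehicle, or a small compound for 4 h, 6 h or 16 h, and the series title describes the compound as an inhibitor of ONECUT2, a homeodomain transcription factor. Each group had 3 Affymetrix U133 Plus 2.0 arrays. No treatment time is given for the vehicle arrays, and a code element in the titles of the other 3 groups is missing from those of the 16 h group, so the compound, the time in culture and whatever that code stands for cannot be told apart in a comparison with the 16 h arrays. Whether replicates came from separate cultures is not labelled, and the p-values therefore describe the variation among these arrays alone, technical variation included. Values are log2 signals as the authors deposited them, and 1 unit is a doubling of signal.

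Cyclins are the regulatory subunits of the cyclin-dependent kinases and are named for their periodic rise and destruction. D-type cyclins join CDK4 and CDK6 in response to growth signals and start the phosphorylation of the retinoblastoma protein, E-type cyclins join CDK2 at the entry to S phase, cyclin A2 serves CDK2 and then CDK1 through S phase and G2, and the B-type cyclins drive CDK1 into mitosis. Cyclin F is an F-box protein that directs other proteins to the proteasome and has no kinase partner, and cyclin G2 is an atypical cyclin associated with arrest rather than with progression. Genes of the late group are known to be transcribed through CCAAT boxes, bound by NF-Y, and through a cell cycle homology region (CHR) near the start, bound by the MuvB complex, which represses in quiescence and activates before mitosis.

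The RefSeq promoter table (build GRCh38.p14) held 7 of the 10 genes, in 9 windows, and CCND1, CCND2 and CCNE2 had no entry. The 250 bases before the annotated start are shown for 5 genes. Of these, CCNA2, CCNB1 and CCNB2 fell at 16 h, CCNF did not pass the test, and CCNG2 rose. Capitals mark the words searched for on both strands: CCAAT, the CHR words TTTGAA and TTTAAA (the second reads the same on either strand), the CHR core TTGAA, which lies inside TTTGAA, and the cyclic AMP response element TGACGTCA. The windows are chr4:121823884-121824133 (minus strand) for CCNA2, chr5:69166900-69167149 (plus) for CCNB1, chr15:59104896-59105145 (plus) for CCNB2, chr16:2429197-2429446 (plus) for CCNF and chr4:77156957-77157206 (plus) for CCNG2.
CCNA2: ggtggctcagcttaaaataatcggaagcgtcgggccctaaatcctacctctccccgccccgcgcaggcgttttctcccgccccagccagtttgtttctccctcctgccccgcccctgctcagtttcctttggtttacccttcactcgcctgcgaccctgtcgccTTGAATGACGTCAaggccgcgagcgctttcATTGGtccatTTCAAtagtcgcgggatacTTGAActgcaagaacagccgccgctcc
CCNB1: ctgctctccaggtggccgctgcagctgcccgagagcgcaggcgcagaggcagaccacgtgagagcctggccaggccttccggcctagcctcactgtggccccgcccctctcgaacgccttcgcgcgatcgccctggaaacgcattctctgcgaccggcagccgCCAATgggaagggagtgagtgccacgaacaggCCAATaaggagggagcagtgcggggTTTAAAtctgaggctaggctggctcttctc
CCNB2: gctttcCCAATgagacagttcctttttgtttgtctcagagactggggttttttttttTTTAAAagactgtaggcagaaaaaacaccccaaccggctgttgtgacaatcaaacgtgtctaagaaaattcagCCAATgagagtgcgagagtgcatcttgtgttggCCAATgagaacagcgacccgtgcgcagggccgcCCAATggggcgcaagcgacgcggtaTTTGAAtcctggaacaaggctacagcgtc
CCNF: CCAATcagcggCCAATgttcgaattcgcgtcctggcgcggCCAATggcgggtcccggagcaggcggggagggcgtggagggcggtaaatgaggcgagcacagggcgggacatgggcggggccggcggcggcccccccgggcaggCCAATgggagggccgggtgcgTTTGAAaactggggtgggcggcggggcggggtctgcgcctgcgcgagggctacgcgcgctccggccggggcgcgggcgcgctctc
CCNG2: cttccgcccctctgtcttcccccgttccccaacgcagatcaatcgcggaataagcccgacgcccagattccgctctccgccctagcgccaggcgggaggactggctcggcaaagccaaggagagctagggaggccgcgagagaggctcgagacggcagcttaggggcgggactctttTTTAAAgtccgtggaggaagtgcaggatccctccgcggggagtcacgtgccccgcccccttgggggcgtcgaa

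Counted back from the annotated start, where the last base shown is -1, CCNB1 had CCAAT at -87 and -55 and the CHR word TTTAAA at -30. CCNB2 had CCAAT at -244, -120, -87 and -54, with TTTAAA at -193 and TTTGAA at -29. CCNF had CCAAT at -250, -239, -210 and -106, and TTTGAA at -85. A CHR word together with at least 2 CCAAT words was thus present in CCNB1, CCNB2 and CCNF, and in 2.12% of the 35116 windows of the same length in the table. CCNA2 had 1 CCAAT, on the opposite strand at -56, no full CHR word and 3 copies of the core TTGAA, at -86, -46 (opposite strand) and -27, a number of copies reached by 2.05% of windows. Its TGACGTCA at -81, a word found in 1.65% of windows, lies next to the first of these. The CCNG2 window held TTTAAA at -73 and no CCAAT, and the CCNE1 window held TTTAAA at -28 and no CCAAT. At least 1 CHR word occurred in 21.9% of all windows and at least 1 CCAAT in 32% of them. In CCND3, 2 of its 3 windows held 1 CCAAT each. The E2F words TTTCGCGC, TTTGGCGC and TTTCCCGC and the forkhead word GTAAACA had no match in any of the 9 windows (2.32% and 2.98% of all windows hold them). These are matches of letters, and binding was not measured. CCNF has the same kinds of word as CCNB1 and CCNB2. As given further on, CCNF did not pass the test at 16 h, and its difference from CCNB1 and CCNB2 was not tested. The part of these words in the 16 h changes was not tested.

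**Figure D1:**
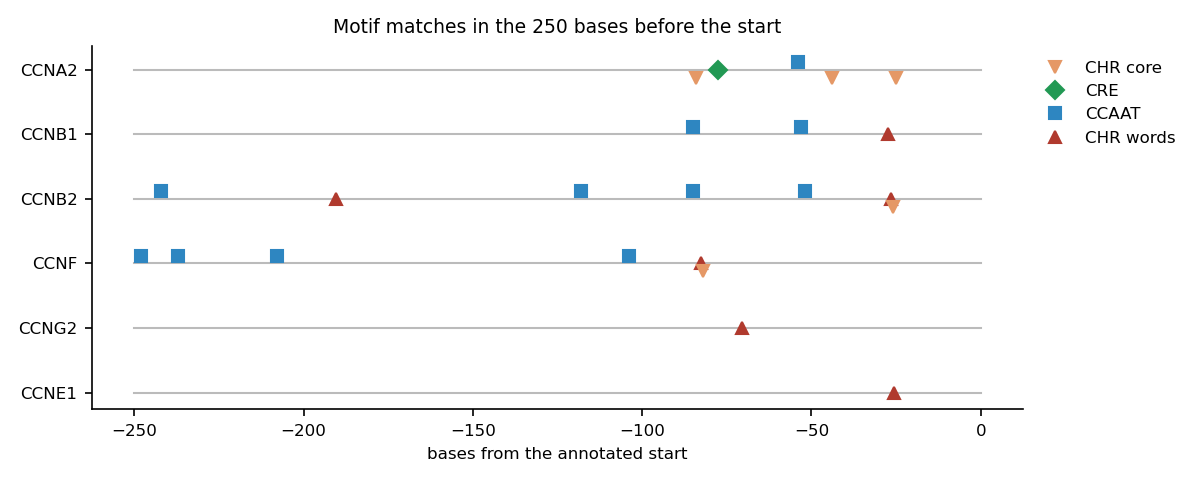
Motif matches in the 250 bases before the annotated start of 6 cyclin genes, plotted by distance from the start in bases; symbols stand for the word found. The mitotic genes CCNB1 and CCNB2 carry CCAAT words at -87 and near -55 with a CHR word near -30. CCNB2 has further CCAAT words at -244 and -120 and a further CHR word at -193. The CCNF matches nearest to the start are CCAAT at -106 and TTTGAA at -85. The part of these positions in the 16 h changes was not tested.

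Of the 10 genes, 9 were tested, each through its brightest probe set, the one whose mean over the arrays was highest, and 17 of the 26 probe sets were tested one by one. The limit for testing was a mean log2 signal of 2.11, the median over all probe sets, and CCND2 fell below it. At 16 h against vehicle 5 of the 9 tested cyclin genes fell (CCND3, CCNE2, CCNA2, CCNB1, CCNB2) and 1 rose (CCNG2), at an adjusted p below 0.05 in a limma fit over 12635 genes. CCND1, CCNE1 and CCNF did not pass. That is 66.7% of the tested cyclin genes, where 42.8% of all tested genes passed, made up of 26% with higher and 16.8% with lower signal at 16 h. The split over all genes moved with the scaling. It was 3279 higher and 2126 lower as deposited, and 2944 higher and 2601 lower with quantile normalisation. In RNA from whole cultures, fewer cells in a phase and less RNA per cell cannot be told apart. The median log2 change was -0.24 over the cyclin genes and 0.05 over all genes. At 4 h and at 6 h no cyclin gene passed (0.459% and 0.0317% of all genes did), while 2 and 1 of the 9 had an unadjusted p below 0.05, as did 10.8% and 8.22% of all genes.

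**Figure D2:**
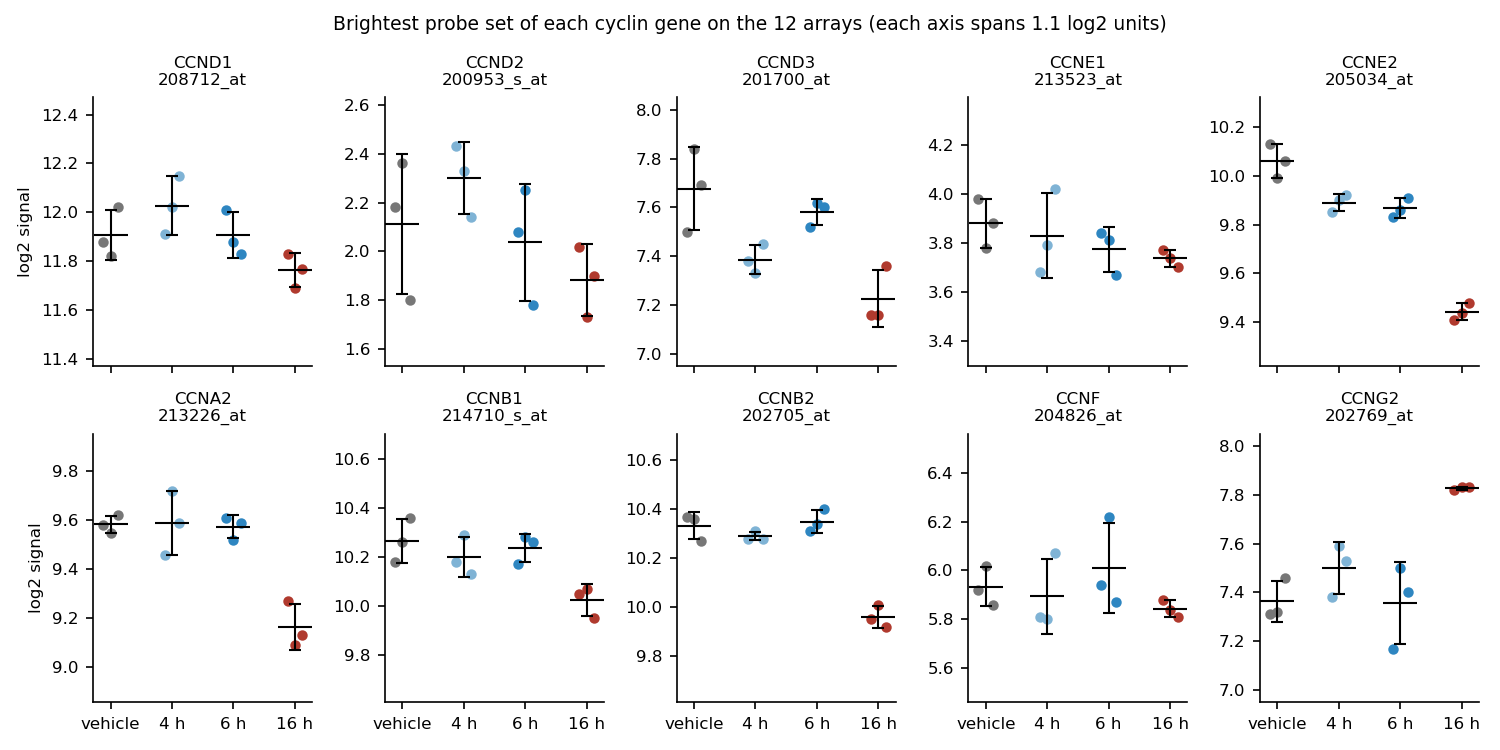
Log2 signal of the brightest probe set of each cyclin gene on the 12 arrays, by group (points, arrays; long bar, mean; whiskers, SD, n = 3); every axis spans the same number of log2 units. The 16 h arrays lie below all other arrays for CCNE2, CCNA2, CCNB1 and CCNB2 and above all others for CCNG2.

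Control signals differed between the groups as well. The 3' minus 5' difference of the ACTB control probe sets was 4.09 ± 0.09 at 16 h and 2.8 ± 0.07 on vehicle arrays (SD, n = 3, exact two-sided permutation test, p = 0.1, which is the floor for 3 against 3), through a 5' signal lower by 1.38. For GAPDH it was -0.43 ± 0.04 at 16 h and -0.46 ± 0.02 in vehicle (exact permutation p = 0.3). The 18S ribosomal RNA control was 11.06 ± 0.10 at 16 h and 9.62 ± 0.29 in vehicle (SD, n = 3, exact permutation p = 0.1), and it lay on the other side of vehicle at 4 h (8.98 ± 0.14) and 6 h (8.64 ± 0.19), without overlap (exact permutation p = 0.1 each). All 7 of the 9 listed prostate luminal markers that were named by a probe set (KLK2, KLK3, HOXB13, TMPRSS2, KRT8, KRT18, EPCAM) stood above the highest unspiked control on every array, with a summed signal of 12.13 to 12.25 at 16 h and 12.05 to 12.1 in vehicle. Members went both ways within that sum: KLK2 (-1.30, adjusted p = 5.02e-05), HOXB13 (-1.06, adjusted p = 2.78e-06) and TMPRSS2 (-0.50, adjusted p = 0.00631) fell, KRT18 rose by 0.20 (adjusted p = 0.0205), and KRT8 (0.02), EPCAM (0.10) and KLK3 (-0.35) did not pass. Fibroblast markers summed to 6.66 to 7.09 at 16 h and 5.71 to 5.97 in vehicle, with 3 of 6 above the control on all arrays and COL1A2 on 0 of 12. COL1A1 rose by 2.05 (adjusted p = 1.04e-05) and LUM by 1.25 (adjusted p = 0.000217), DCN fell by 0.58 (adjusted p = 0.0048) and COL3A1 fell by 0.37 (adjusted p = 0.00648), and THY1 (-0.03) did not pass. Endothelial markers summed to 3.65 to 3.75 and 3.64 to 3.88 in the same order, with 1 of 4 above the control on all arrays, and leukocyte markers to 3.24 to 3.44 and 3.4 to 3.53, with 0 of the 3 named above it on all arrays. The part of these signals in the cyclin results was not tested.

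Among the D-type cyclins, CCND1 (chromosome 11) gave differing pictures on its 2 probe sets. The brightest, 208712_at, read 11.88, 11.82 and 12.02 on vehicle arrays, 11.91, 12.02 and 12.15 at 4 h, 12.01, 11.88 and 11.83 at 6 h, and 11.83, 11.69 and 11.77 at 16 h. The groups overlapped at every neighbouring step of their order, and the 16 h change of -0.14 ± 0.08 (SE) did not pass (adjusted p = 0.193, 95% interval -0.32 to 0.04). All 16 h arrays lay below the 4 h arrays and, by less than the rounding of these values, below the 6 h arrays. The change of -0.14 at 16 h against 6 h did not pass either (adjusted p = 0.185). The second, 208711_s_at, read 10.73, 9.98 and 10.36 on vehicle arrays, 9.91, 9.39 and 9.49 at 4 h, 9.6, 9.53 and 9.29 at 6 h, and 8.92, 8.92 and 8.77 at 16 h. Every treated array on it lay below every vehicle array. The change was -0.76 at 4 h (adjusted p = 0.124), -0.88 at 6 h (adjusted p = 0.0507) and -1.49 ± 0.18 at 16 h (adjusted p = 5.95e-05), the last a 2.8-fold lower signal. Only the 16 h value passed, and 208711_s_at differed between 16 h and 6 h as well, by -0.61 (adjusted p = 0.0184). Vehicle replicate 2 was the lowest vehicle array on it, and without that array the 4 h and 6 h changes passed too (adjusted p = 0.0203 and 0.00689). Leaving out the lowest vehicle array enlarges a fall in any case, and leaving out any other single array did not make these changes pass.

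The distance between the CCND1 probe sets on the same array shows the disagreement directly. The signal of 208712_at exceeded that of 208711_s_at by 1.15, 1.84 and 1.66 on vehicle arrays, by 2, 2.63 and 2.66 at 4 h, by 2.41, 2.34 and 2.54 at 6 h, and by 2.91, 2.77 and 3 at 16 h. No treated array overlapped the vehicle arrays at any time. The mean distance exceeded that on vehicle arrays by 0.88 after 4 h, 0.88 after 6 h and 1.35 after 16 h (exact two-sided permutation p = 0.1 each, the smallest that 3 against 3 arrays allow, and 0.2 after adjustment over 18 such tests of 6 cyclin genes). Among 5913 genes with at least 2 tested probe sets, the second probe set fell behind the brightest by as much or more in 0.879% (4 h), 1.52% (6 h) and 1.71% (16 h). The ACTB 5' control differed from vehicle by 0.12 after 4 h, -0.2 after 6 h and -1.38 after 16 h. The 18S control differed by -0.64 after 4 h, -0.98 after 6 h and 1.44 after 16 h, without overlap at any of these times. The part of either control in the CCND1 values was not tested. Where on the CCND1 transcript each probe set lies is not given in the files used here, and an _s_at probe set can bind several transcripts.

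**Figure D3:**
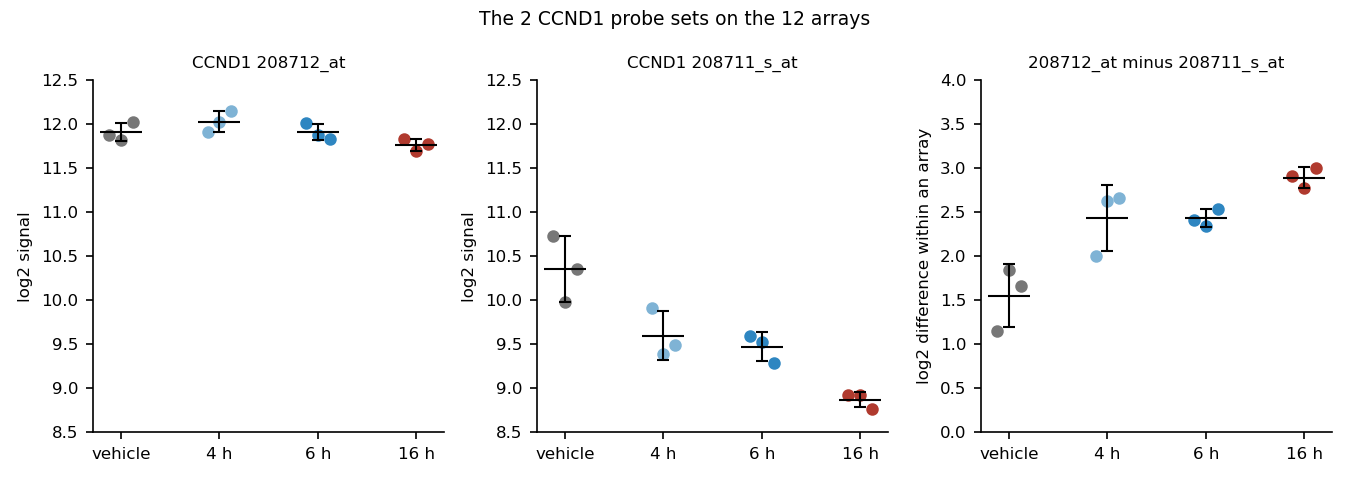
Log2 signal of the CCND1 probe sets 208712_at (left) and 208711_s_at (middle) and their difference on the same array (right), for the 12 arrays by group (points, arrays; long bar, mean; whiskers, SD, n = 3). The difference averages 1.55 in vehicle, 2.43 at 4 h, 2.43 at 6 h and 2.89 at 16 h, with no treated array inside the vehicle range.

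CCND2 (chromosome 12) had 4 probe sets, all close to the unspiked bacterial controls, whose highest value per array lay between 1.87 and 2.28. The brightest, 200953_s_at, read 2.18, 2.36 and 1.8 on vehicle arrays, 2.43, 2.33 and 2.14 at 4 h, 2.08, 2.25 and 1.78 at 6 h, and 2.02, 1.73 and 1.9 at 16 h. It exceeded the highest such control on 9 of 12 arrays and the other 3 (200951_s_at, 200952_s_at and 231259_s_at) did so on none, so no change of CCND2 was measurable here. CCND3 (chromosome 6), the D-type cyclin known for its role in lymphoid cells, was measured by 201700_at. It read 7.5, 7.84 and 7.69 on vehicle arrays, 7.38, 7.33 and 7.45 at 4 h, 7.52, 7.62 and 7.6 at 6 h, and 7.16, 7.16 and 7.36 at 16 h. The 16 h arrays were all below the vehicle and 6 h arrays but overlapped those of 4 h. CCND3 fell by 0.45 ± 0.09 at 16 h against vehicle (SE, 1.36-fold, adjusted p = 0.00176) and by 0.35 at 16 h against 6 h (adjusted p = 0.00769). Its 4 h arrays also lay below all vehicle and 6 h arrays, and that change of -0.29 did not pass (adjusted p = 0.262, unadjusted p = 0.00764). A second probe set, 1562028_at, stayed at or below the unspiked controls on all arrays.

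Of the E-type cyclins, which open S phase with CDK2, CCNE2 passed at 16 h and CCNE1 did not, and the difference between them was not tested. CCNE1 (chromosome 19) had a low signal, with 213523_at at 3.98, 3.78 and 3.88 on vehicle arrays, 3.68, 3.79 and 4.02 at 4 h, 3.84, 3.81 and 3.67 at 6 h, and 3.77, 3.74 and 3.7 at 16 h. The 16 h and vehicle arrays just failed to overlap, and the 16 h change of -0.14 ± 0.09 (SE) did not pass (adjusted p = 0.228, 95% interval -0.33 to 0.05). With quantile normalisation it was -0.25 and passed (adjusted p = 0.0417). The other CCNE1 probe set, 242105_at, was at the unspiked controls throughout.

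CCNE2 (chromosome 8) had the lowest adjusted p of the cyclin genes at 16 h. Its brightest probe set, 205034_at, read 10.13, 9.99 and 10.06 on vehicle arrays, 9.85, 9.9 and 9.92 at 4 h, 9.83, 9.86 and 9.91 at 6 h, and 9.41, 9.44 and 9.48 at 16 h. All 4 h and 6 h arrays lay below the vehicle arrays, and all 16 h arrays lay below those. CCNE2 fell by 0.62 ± 0.06 at 16 h against vehicle (SE, 1.53-fold, adjusted p = 8.97e-06) and by 0.42 at 16 h against 6 h (adjusted p = 0.000159), while the changes of -0.17 at 4 h (adjusted p = 0.313) and -0.19 at 6 h (adjusted p = 0.353) did not pass. The second probe set, 211814_s_at, with 5.2, 4.45 and 5.01 in vehicle, 4.57, 4.48 and 4.76 at 4 h, 4.32, 4.57 and 4.64 at 6 h, and 3.66, 3.13 and 3.88 at 16 h, was again lowest at 16 h without overlap. Its 16 h change was -1.33 ± 0.21 (SE, 2.52-fold, adjusted p = 0.000386), and that of 16 h against 6 h was -0.96 (adjusted p = 0.00355). The distance between the CCNE2 probe sets was 0.72 wider at 16 h than in vehicle (exact two-sided permutation p = 0.1, adjusted 0.2), a gap reached in the same direction by 7.54% of the 5913 genes. Both CCNE2 probe sets were therefore lower at 16 h. The distances between them at 16 h and in vehicle did not overlap. The exact two-sided permutation test of 3 against 3 arrays cannot go below 0.1, so it cannot decide whether the distance changed.

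CCNA2 (chromosome 4), which serves DNA replication and then the approach to mitosis, did not differ beyond the spread of its brightest probe set before 16 h. Its brightest probe set, 213226_at, read 9.58, 9.55 and 9.62 on vehicle arrays, 9.46, 9.72 and 9.59 at 4 h, 9.61, 9.52 and 9.59 at 6 h, and 9.27, 9.09 and 9.13 at 16 h. The vehicle, 4 h and 6 h arrays overlapped, and every 16 h array lay below them. CCNA2 fell by 0.42 ± 0.08 at 16 h against vehicle (SE, 1.34-fold, adjusted p = 0.000913) and by 0.41 at 16 h against 6 h (adjusted p = 0.00106). The second probe set, 203418_at, read 7.62, 7.62 and 7.65 on vehicle arrays, 7.49, 7.56 and 7.5 at 4 h, 7.62, 7.57 and 7.52 at 6 h, and 7.18, 7.01 and 6.66 at 16 h. Again every 16 h array lay below all others, with a 16 h change of -0.68 ± 0.11 (SE, 1.6-fold, adjusted p = 0.000454), and a change of -0.62 at 16 h against 6 h (adjusted p = 0.000929). On 203418_at the 4 h arrays also lay below all vehicle arrays, and that change of -0.12 did not pass (adjusted p = 0.75).

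The B-type cyclins, partners of CDK1 in mitosis, were lower at 16 h by smaller amounts. CCNB1 (chromosome 5) read 10.18, 10.26 and 10.36 on vehicle arrays with 214710_s_at, 10.18, 10.29 and 10.13 at 4 h, 10.17, 10.28 and 10.26 at 6 h, and 10.05, 10.07 and 9.95 at 16 h. All 16 h arrays were below the rest, by a margin close to the spread between arrays. CCNB1 fell by 0.24 ± 0.07 at 16 h against vehicle (SE, 1.18-fold, adjusted p = 0.0173) and by 0.21 at 16 h against 6 h (adjusted p = 0.0305). The first of these calls rested on single arrays, with an adjusted p of 0.068 without vehicle replicate 3 and 0.0635 without 16 h replicate 3. The second was lost without 6 h replicate 2, 6 h replicate 3 or 16 h replicate 3 (adjusted p = 0.0974, 0.0777 and 0.102). The other CCNB1 probe set, 228729_at, read 8.52, 8.6 and 8.64 on vehicle arrays, 8.57, 8.64 and 8.53 at 4 h, 8.3, 8.54 and 8.74 at 6 h, and 8.33, 8.36 and 8.02 at 16 h. It too was lower at 16 h than in vehicle without overlap, with a change of -0.35 ± 0.12 (SE, adjusted p = 0.0306). It no longer passed when 16 h replicate 3 (adjusted p = 0.122), vehicle replicate 2 (adjusted p = 0.0689) or vehicle replicate 3 (adjusted p = 0.0836) was left out.

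CCNB2 (chromosome 15), whose product is known at the Golgi, was more uniform between arrays. With 202705_at it read 10.37, 10.36 and 10.27 on vehicle arrays, 10.28, 10.31 and 10.28 at 4 h, 10.31, 10.34 and 10.4 at 6 h, and 9.95, 10.01 and 9.92 at 16 h. The 3 earlier groups lay together and the 16 h arrays apart below them. CCNB2 fell by 0.37 ± 0.06 at 16 h against vehicle (SE, 1.29-fold, adjusted p = 0.000323) and by 0.39 at 16 h against 6 h (adjusted p = 0.000248). Its other 2 probe sets, 232768_at and 232764_at, were near or below the unspiked controls. Averaging the tested one of these, 232768_at, with the brightest gave a 16 h change of -0.15 that did not pass (adjusted p = 0.0627).

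CCNF (chromosome 16), the F-box cyclin of G2 whose product degrades proteins of centrosome duplication and nucleotide supply, did not pass at any time. On 204826_at it read 5.92, 6.02 and 5.86 on vehicle arrays, 5.81, 5.8 and 6.07 at 4 h, 5.94, 6.22 and 5.87 at 6 h, and 5.88, 5.84 and 5.81 at 16 h. All neighbouring groups overlapped. The 16 h change was -0.09 ± 0.10 (SE, adjusted p = 0.472) with a 95% interval of -0.31 to 0.12, which includes 0. The other CCNF probe set, 204827_s_at, was below the limit for testing and above the highest unspiked control on 5 of 12 arrays. It read 2.14, 1.86 and 2.2 on vehicle arrays, 1.68, 2.09 and 1.93 at 4 h, 1.99, 2.02 and 1.95 at 6 h, and 1.67, 1.79 and 1.77 at 16 h. Its 16 h arrays lay below the vehicle and 6 h arrays, at a level where signal and background cannot be told apart. Against 6 h, 204826_at passed with quantile normalisation alone (-0.29, adjusted p = 0.0361).

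CCNG2 (chromosome 4) is known as a target of FOXO factors and as a gene of non-dividing cells. Of the 9 tested members, CCNG2 was the 1 called with higher signal at 16 h. Its brightest probe set, 202769_at, read 7.31, 7.32 and 7.46 on vehicle arrays, 7.38, 7.59 and 7.53 at 4 h, 7.17, 7.5 and 7.4 at 6 h, and 7.82, 7.83 and 7.83 at 16 h. The 16 h arrays were nearly identical and stood above all others, which overlapped. CCNG2 rose by 0.47 ± 0.09 at 16 h against vehicle (SE, 1.38-fold, adjusted p = 0.00124) and by 0.47 at 16 h against 6 h (adjusted p = 0.00112). The 3 other tested CCNG2 probe sets had positive values at 16 h that did not pass, 0.28 for 202770_s_at (adjusted p = 0.336), 0.10 for 211559_s_at (adjusted p = 0.375) and 0.18 for 228081_at (adjusted p = 0.129). On 228081_at every treated array lay above every vehicle array. Its changes of 0.26 at 4 h (adjusted p = 0.267) and 0.17 at 6 h (adjusted p = 0.525) did not pass either. A further probe set, 1555056_at, was below the limit for testing, at 1.78 to 2.4 over the 12 arrays, and its groups at 16 h and in vehicle overlapped. The CCNG2 call therefore rests on 1 of 4 tested probe sets. A rise at 16 h was not particular to CCNG2, since 9 of 13 other tested cyclins, listed further on, rose too. CCNG1 was among these, with a rise of 0.40 ± 0.06 (SE, limma adjusted p = 0.000286).

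Counted over probe sets, 9 of the 17 tested cyclin probe sets were lower and 1 was higher at 16 h than in vehicle at an adjusted p below 0.05, where 39.7% of the 27306 tested probe sets passed. At 4 h and 6 h none passed, where 0.293% and 0.681% of all probe sets did, while 4 and 2 of the 17 cyclin probe sets had an unadjusted p below 0.05, as did 11.4% and 11.6% of all probe sets. For the 16 h arrays against the 6 h arrays, the 6 cyclin genes called were again 5 lower and 1 higher, against a share of 42.7% of all genes, and 9 of the 17 probe sets passed, against 38.4% of all probe sets. Of all genes, 3168 were higher and 2222 lower at 16 h than at 6 h, and with quantile normalisation 2646 were higher and 3055 lower. Between the 6 h and 4 h arrays no cyclin gene passed, and none had an unadjusted p below 0.05 in the limma fit, where 0.095% of all genes passed. The comparisons with vehicle share the vehicle arrays, and those of 16 h share the 16 h arrays.

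**Figure D4:**
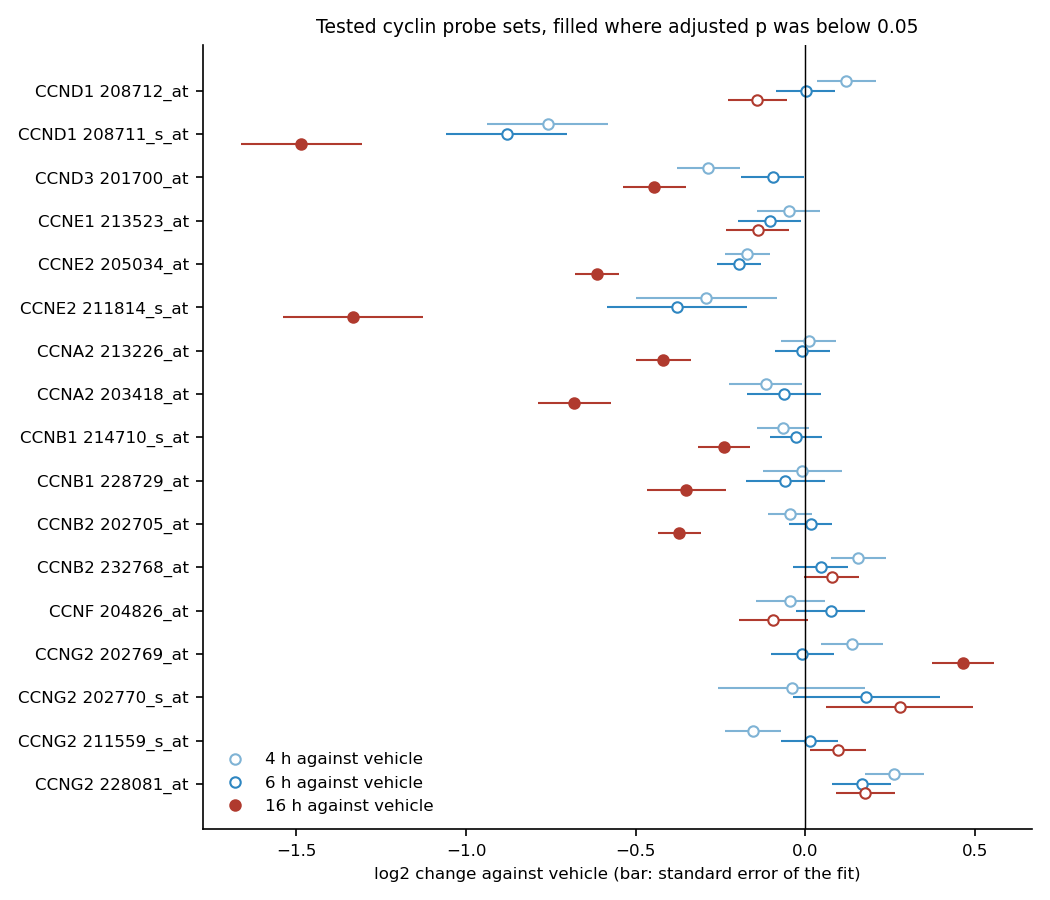
Log2 change against vehicle of the 17 tested cyclin probe sets at 4 h, 6 h and 16 h (points, difference of group means; bars, standard error of the fit over all probe sets; filled points, adjusted p below 0.05). Filled points occur at 16 h only, 9 to the left of 0 and 1, CCNG2 202769_at, to the right, while CCND1 208711_s_at lies well left of 0 at all times.

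Besides the cyclins above, 75 genes of cell cycle control were listed, and 72 were tested. At 16 h against vehicle 25 were higher and 23 lower, which together is 66.7% of those tested against 42.8% of all genes. The lists by role are given in turn. Of 13 other cyclins, which mostly serve transcription or have no settled cycle role, 9 rose and 0 fell, with a median change of 0.36. CCNL1, a cyclin of splicing speckles, rose most, to 7.69 ± 0.10 at 16 h against 6.41 ± 0.17 in vehicle (SD, n = 3, 2.42-fold, limma adjusted p = 8.13e-07). CCNT2 and CCNK, partners of transcription kinases, rose 1.61-fold and 1.41-fold, and CCNH, partner of the CDK-activating kinase CDK7, rose 1.38-fold.

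Of the 12 kinases and switches, 3 rose and 5 fell at 16 h, or 66.7%. Of all tested genes 42.8% passed, 26% with higher and 16.8% with lower signal. CDK6 rose 2.03-fold (adjusted p = 2.16e-05), to 6.77 ± 0.24 against 5.75 ± 0.16 in vehicle (SD, n = 3), whereas CDK4, the other partner of the D-type cyclins, fell 1.3-fold (adjusted p = 0.000208). WEE1, the kinase that holds CDK1 inactive, rose 1.42-fold, and CDK7 rose 1.28-fold. PKMYT1, a membrane-bound kinase with the same target as WEE1, fell 1.65-fold, CDK2 fell 1.25-fold and CDC25B, a phosphatase that activates CDK1, fell 1.25-fold. Of 6 tested inhibitors 3 rose and 1 fell, or 66.7%, against the same 42.8% of all genes. CDKN1A, which encodes p21, rose 8.72-fold (adjusted p = 1.7e-09), to 8.53 ± 0.12 at 16 h against 5.41 ± 0.05 in vehicle (SD, n = 3). CDKN2B rose 2.29-fold and CDKN1C 1.8-fold, and CDKN2A fell 1.32-fold.

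Of the 19 pocket protein, E2F and MuvB genes, which control when cyclin genes are transcribed, 2 rose and 10 fell, with a median change of -0.43. That is 63.2%, where 42.8% of all tested genes passed, 26% with higher and 16.8% with lower signal. E2F1, an activator of S phase genes that include E-type cyclins, fell 3.09-fold (adjusted p = 1.03e-08), to 4.56 ± 0.07 at 16 h against 6.19 ± 0.03 in vehicle (SD, n = 3). E2F8 fell 1.81-fold, FOXM1 fell 1.81-fold and E2F2 fell 1.71-fold, while E2F6 and LIN37 rose 1.59-fold and 1.44-fold. Of 17 tested genes of cyclin degradation 4 rose and 6 fell, or 58.8%, against the same 42.8% of all genes. FBXW7, the receptor of the ligase that removes cyclin E, rose 2-fold (adjusted p = 0.000179), ANAPC10, a subunit of the anaphase-promoting complex, rose 1.53-fold, and FBXO31 and AMBRA1, receptors for D-type cyclins, rose 1.41-fold and 1.33-fold. FBXO4 fell 1.45-fold. CDC20, which brings B-type cyclins to the anaphase-promoting complex, fell 1.43-fold, UBE2C, the ubiquitin-conjugating enzyme of that complex, fell 1.4-fold, and FBXO5, its inhibitor, fell 1.35-fold.

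The 5 listed regulators of CCNG2 and the D-type genes all passed at 16 h, 4 higher and 1 lower, where 42.8% of all genes passed. FOXO1 rose 2.17-fold, FOXO3 1.62-fold, ATF4 1.59-fold and FOXO4 1.34-fold, and MYC fell 1.43-fold. FOXO1 had a low signal, at 3.91 ± 0.34 at 16 h and 2.8 ± 0.12 in vehicle (SD, n = 3). FOXO4 was close to the unspiked controls, at 2.73 at 16 h and 2.31 in vehicle. At 4 h 3 of the 72 genes (4.17%) passed: FOXO3 rose by 0.48 ± 0.09 (SE, adjusted p = 0.0301), WEE1 rose by 0.44 ± 0.08 (adjusted p = 0.0278) and MYC fell by 0.40 ± 0.07 (adjusted p = 0.0225). The count of 3 depended on every array: it was 1 without vehicle replicate 2 and 0 without any other single vehicle or 4 h array. Of all genes 0.459% passed at 4 h. At 6 h 0 of 72 passed in the limma fit (0.0317% of all genes did), with 7 at an unadjusted p below 0.05, or 9.72%, where 8.22% of all genes had such a p.

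**Figure D5:**
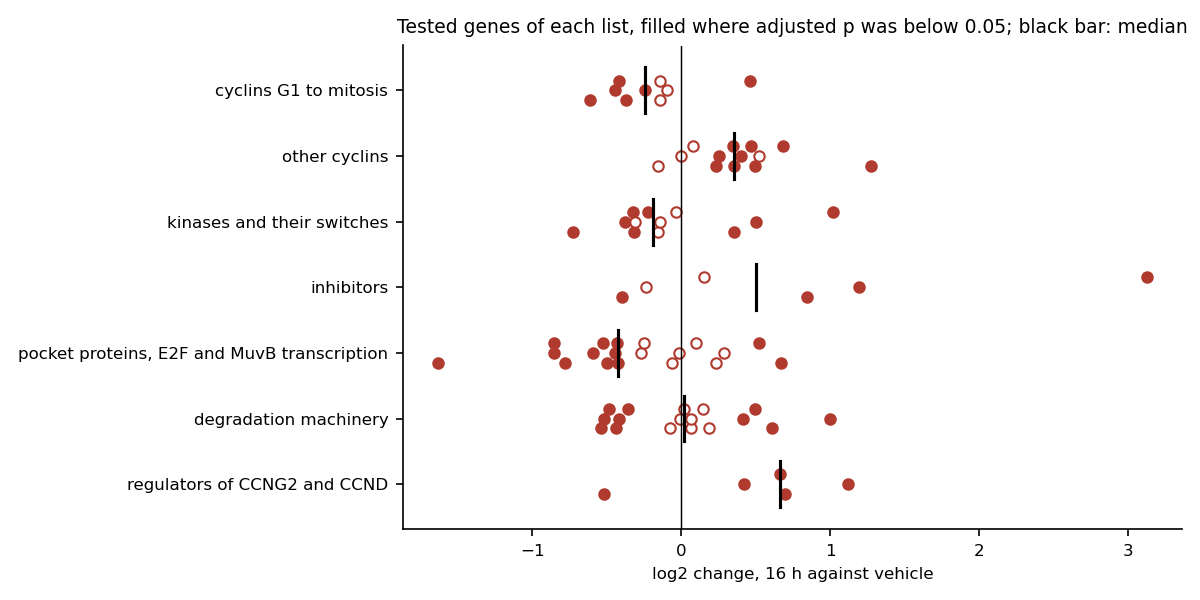
Log2 change at 16 h against vehicle of every tested gene in the cyclin set and in the 6 lists of cell cycle control genes (points, genes; filled, adjusted p below 0.05; black bar, median of the list). The cyclins of G1 to mitosis have a median of -0.24 with CCNG2 alone to the right of 0, the other cyclins one of 0.36, and the point farthest to the right is CDKN1A.

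As a description of shared pattern, each tested cyclin was correlated with all other tested genes over the 12 arrays, whose 4 groups most of such a correlation reflects. Closest to CCND1 were SNX7 (r = 0.92) and PDHX (r = 0.92), to CCND3 RPLP2 (r = 0.961) and RCAN3 (r = 0.96), and to CCNE1 RAD51B (r = 0.858) and PPFIBP2 (r = 0.8). For CCNE2 they were GCNT1 (r = 0.98) and KRT19 (r = 0.977), for CCNA2 ZNF552 (r = 0.976) and PTPRF (r = 0.968), and for CCNB1 FAM83D (r = 0.956) and DLX1 (r = 0.943). CCNB2 was closest to ECI2 (r = 0.985) and SELENOM (r = 0.983), CCNF to LINC00905 (r = 0.891) and GCAT (r = 0.877), and CCNG2 to MARCHF8 (r = 0.981) and SOCS7 (r = 0.971). Correlations above 0.8 were shared with 11% of all tested genes for CCNB2, 10.1% for CCNE2 and 15.4% for CCNG2, against 0.34% for CCND1 and 0.0554% for CCNF. Between cyclins, CCNB2 correlated with CCNE2 at r = 0.913, with CCNA2 at r = 0.892 and with CCNB1 at r = 0.816, and with CCNG2 at r = -0.866.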

How the data were processed

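RNA of 12 samples, 3 in each of 4 groups, was measured on 3'-end amplified Affymetrix U133 Plus 2.0 arrays, per the labels' protocols. The authors deposited log2 values of 54675 probe sets, made with GCRMA (background correction by probe sequence, normalisation between arrays, summary per probe set) per the submitters' processing notes, where no version is given. Such a normalisation hides a shift common to most genes. Groups came from the labels. Of the probe sets, 41097 had 1 symbol, 1801 several and 11777 none in the platform annotation, and 62 were controls. Symbols were updated through RefSeq (41037 matched, 54 kept).

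A gene was represented by its brightest probe set and tested at a mean of at least 2.11. The 4 groups were fitted with limma 3.58.1 (lmFit, eBayes, 8 residual and 3.69 prior degrees of freedom) in R 4.3.3 over 12635 genes, and over 27306 probe sets for single probe sets, with Benjamini-Hochberg adjustment over each table. Called means an adjusted p below 0.05, two-sided. The number of arrays limits the precision. Control signals and distances between probe sets were compared by exact two-sided permutation, which cannot go below 0.1. Motif words were searched with Python 3.11.15 in RefSeq windows of 250 bases. The script was tested on simulated data.

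The cyclin genes, the lists and the tests were chosen with earlier results of these data known. By the naming rule all 10 cyclins were described on every probe set, with the 2 genes of highest correlation each and up to 4 called genes per direction and list. Alternatives were quantile normalisation, median centring, no filter or a 75th percentile filter, a trended and robust prior, array weights, only the 2 groups compared, a replicate block, the mean of probe sets, probe sets outside _s_at and _x_at, and leaving out each replicate.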

Additional observations from a re-analysis of the deposited data

Results flagged for a closer look

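The difference between the 16 h and 6 h changes from vehicle, in which the vehicle arrays cancel, passed the limma test for 9 cyclin probe sets, of the 17 tested, where 38.4% of all tested probe sets passed. On the log2 scale, 16 h minus 6 h was -0.61 for CCND1 208711_s_at, -0.35 for CCND3, -0.42 for CCNE2 205034_at and -0.96 for CCNE2 211814_s_at. It was -0.41 for CCNA2 213226_at, -0.62 for CCNA2 203418_at, -0.21 for CCNB1 and -0.39 for CCNB2. CCNG2 differed in the other direction, by 0.47.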

How the results depend on the processing

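The count of cyclin genes called at 16 h against vehicle was 6 and stayed between 5 and 7 over the 17 alternatives, as it did at 16 h against 6 h, and no log2 change of a called cyclin reversed. CCNB1 was the call lost without vehicle replicate 3 or 16 h replicate 3, CCNE1 the call gained with quantile normalisation, and CCNB2 the call lost with the mean of probe sets. At 16 h against 6 h, CCNB1 was also lost with no filter (adjusted p = 0.0561), in the fit of only the 2 groups (0.0525) and with probe sets outside _s_at and _x_at (0.0576), and averaged probe sets ended the CCNG2 call (0.167, adjusted p = 0.0928). Counting a gene by any tested probe set, chosen after seeing the data, gave 7 cyclin genes at 16 h, and the mean of probe sets gave CCND1 a change of -0.81 (adjusted p = 5.12e-05). Of cyclin probe sets at 6 h, 0 were called, but 1 was with median centring, no filter, the 75th percentile filter or array weights and 2 with the trended and robust prior, CCND1 208711_s_at each time (adjusted p = 0.0354, 0.0482, 0.0346, 0.0419 and 0.0399) and CCNE2 205034_at (0.0412) with the last. Leaving out a replicate gave 0 to 1 at 4 h and 0 to 1 at 6 h, the 1 without vehicle replicate 2. With the replicate block, 1 cyclin probe set was called at 4 h and 1 at 6 h (CCND1 208711_s_at at both, adjusted p = 0.047 and 0.0184), 6 cyclin genes at 16 h and 5696 genes in all there. Same-numbered arrays correlated at -0.005 to 0.235 in their deviations from the group means. No value for differently numbered arrays was set beside these, so they cannot show whether the numbers are pairs. The main fit did not take them as pairs. Of cell cycle control genes, 3 were called at 4 h, and 1 with median centring, the mean of probe sets or any tested probe set, 0 with no filter or only the 2 groups, and 0 to 1 when a replicate was left out. At 6 h 0 were called, and 1 with the trended and robust prior, the mean of probe sets or any tested probe set. Over all genes, the 58 calls at 4 h ranged from 25 to 136, the 4 at 6 h from 0 to 155 and the 12 of 6 h against 4 h from 0 to 59, the highest values from the trended and robust prior at 4 h and for 6 h against 4 h and from any tested probe set at 6 h. The cause of these differences was not tested.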

Other observations

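Set against the 6 h arrays, the listed cell cycle control genes at 16 h gave 26 higher and 25 lower of 72 tested (42.7% of all genes were called). Of 13 other cyclins 10 were higher and 0 lower, with a median log2 difference of 0.42. Of 12 kinases and their switches 3 were higher and 8 lower, with a median of -0.26, and of 19 pocket protein, E2F and MuvB genes 2 were higher and 10 lower, with a median of -0.23. Degradation genes gave 4 higher and 5 lower of 17, inhibitors 3 higher and 1 lower of 6, and the regulators of CCNG2 and the D-type genes 4 higher and 1 lower of 5. These comparisons share the 16 h arrays with those against vehicle.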
